A study of Homo sapiens with 12 samples.

Results

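The Fanconi anemia genes examined here are 10: FANCA, FANCB, FANCC, FANCD2, FANCE, FANCF, FANCG, FANCI, FANCL and FANCM. They were chosen by gene name from the 26485 genes of a table of RNA sequencing counts. All 10 had enough counts to be tested. The RNA came from the ovarian carcinoma lines COV362 and PEO1, which are used as models of the high-grade serous type and are labelled parental. Each line received DMSO, the solvent control, or prexasertib at 20 nM, which inhibits CHK1 and, less strongly, CHK2, kinases of the DNA damage checkpoint. That made 4 groups of 3 libraries, COV362 DMSO, COV362 prexasertib, PEO1 DMSO and PEO1 prexasertib, each with libraries A, B and C. All cells were grown in the same serum medium with insulin. The labels give neither the treatment time nor whether the letters mark separate cultures, so the p-values measure only the spread between these libraries. PEO1 is known for a BRCA2 mutation and COV362 for a BRCA1 mutation, a background that the labels do not mention. A difference between the lines cannot be told apart from any other property of these 2 lines.

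The Fanconi anemia pathway repairs DNA strands that are linked covalently to each other, and it protects stalled replication forks. FANCM binds the stalled fork and brings in the core complex, which is built of FANCA with FANCG, FANCB with FANCL, and FANCC with FANCE and FANCF. FANCL is its ubiquitin ligase and, with the conjugating enzyme UBE2T, attaches ubiquitin to FANCD2 and FANCI, the paired clamp known as the ID2 complex. USP1 with WDR48 removes that ubiquitin again, and the marked clamp calls in nucleases and recombination proteins such as BRCA2. The ATR and CHK1 kinases act on several members, and FANCE is a known CHK1 substrate. Inherited loss of a member causes Fanconi anemia, in which cells are hypersensitive to crosslinking agents.

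The promoters of 4 members are shown because these genes carry the contrasts described below: FANCA fell and FANCM rose with the drug in PEO1, and FANCC and FANCF had the largest opposite differences between the untreated lines. Each window holds the 250 bases before the RefSeq start site (build GRCh38.p14), 5′ to 3′ on the strand of the gene, with matches to the searched motifs in capitals. FANCA lies at chr16:89816648-89816897 (minus strand), FANCC at chr9:95317710-95317959 (minus), FANCF at chr11:22625824-22626073 (minus) and FANCM at chr14:45135680-45135929 (plus).
FANCA: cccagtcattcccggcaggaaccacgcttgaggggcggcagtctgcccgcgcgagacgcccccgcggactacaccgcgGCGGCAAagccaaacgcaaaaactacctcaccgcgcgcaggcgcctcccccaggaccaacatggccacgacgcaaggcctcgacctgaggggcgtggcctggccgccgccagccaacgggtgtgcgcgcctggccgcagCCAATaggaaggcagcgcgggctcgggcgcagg
FANCC: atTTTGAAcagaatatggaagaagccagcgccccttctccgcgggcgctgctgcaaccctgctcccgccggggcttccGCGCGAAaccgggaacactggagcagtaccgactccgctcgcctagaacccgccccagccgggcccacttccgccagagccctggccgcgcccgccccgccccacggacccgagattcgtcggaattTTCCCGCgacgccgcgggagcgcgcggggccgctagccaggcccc
FANCF: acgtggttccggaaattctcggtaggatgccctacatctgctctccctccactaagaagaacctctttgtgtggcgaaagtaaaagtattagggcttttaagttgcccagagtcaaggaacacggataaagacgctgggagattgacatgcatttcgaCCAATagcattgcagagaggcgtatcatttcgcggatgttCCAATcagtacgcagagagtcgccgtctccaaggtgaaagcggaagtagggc
FANCM: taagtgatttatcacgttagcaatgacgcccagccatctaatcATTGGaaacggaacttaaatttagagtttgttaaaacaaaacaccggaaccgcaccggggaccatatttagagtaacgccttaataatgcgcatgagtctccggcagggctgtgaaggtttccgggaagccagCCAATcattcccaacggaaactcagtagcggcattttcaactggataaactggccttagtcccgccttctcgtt
The searched motifs, on both strands, were 4 E2F-like heptamers (TTCCCGC or TTCGCGC or TTGCCGC or TTGGCGC), the CHR element TTTGAA and the CCAAT box CCAAT. E2F factors drive genes of the G1/S transition, CHR elements mark many G2/M genes, and NF-Y binds CCAAT boxes. No searched motif contains another.

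RefSeq windows were matched to 9 of the 10 members, all but FANCI, with a second one for FANCC, which gives 10 windows. An E2F-like heptamer stood in 5 of these 10 windows, those of FANCA, FANCC (both), FANCG and FANCL, against 15.8% of 15634 windows of tested genes and 10.9% of all 35116. The FANCC window shown has 1 such match at 172 to 166 bases and another at 45 to 39 bases before the start, and the CHR element at 248 to 243 bases. In FANCA the heptamer lies 172 to 166 bases before the start, with a CCAAT box at 33 to 29 bases. FANCF has CCAAT boxes at 92 to 88 and 52 to 48 bases, and FANCM at 207 to 203 and 74 to 70 bases, and neither window has an E2F-like heptamer of these letters. CCAAT was in 3 of the 10 windows, against 32.6% of those of tested genes, and the CHR element in 1, against 9.11%. FANCM and FANCF also have the windows poorest in G and C among the members, at 46.4% and 49.2%. The median over tested genes was 64.4%, and FANCA stood at 72%. Windows with an E2F-like heptamer ran from 62% (FANCL) to 78% (the FANCC window not shown). Those without one ran from 46.4% (FANCM) to 73.6% (FANCE). The shares of windows with a match were not adjusted for G and C, and FANCC counts with both of its windows. These matches describe letters in a window and no binding was measured.

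Library totals lay between 9390790 and 18262805 counts, and a member had between 39 counts (FANCB in COV362 DMSO A, the shallowest library) and 3889 counts (FANCI) in a library. Levels are given as CPM, counts relative to the library total after scaling with TMM (trimmed mean of M-values) factors, so they are shares of a library and a change in total RNA per cell would not show. In the 4 A libraries counts leaned toward genes with short exons (Spearman correlation of the deviation from the group mean with exon length across genes −0.413 to −0.348). In the B and C libraries the correlation ran from −0.054 (PEO1 prexasertib C) to 0.439 (COV362 DMSO B). It was also high in PEO1 prexasertib B (0.411), COV362 prexasertib B (0.367) and PEO1 DMSO C (0.325). Leaving out the A libraries therefore does not remove unequal leans. This bears on FANCM, whose exons are the longest of the members at 7151 bases. Keratins KRT7, KRT8 and KRT18 and the Müllerian factor PAX8 were abundant in both lines. EPCAM (11.9 CPM), KRT19 (9.43 CPM) and CDH1 (0.346 CPM) were low in COV362 DMSO, against 418, 715 and 114 CPM in PEO1 DMSO. SOX17 was at 0 in all PEO1 libraries, and MECOM stood at 93.6 CPM in COV362 DMSO and 0.414 CPM in PEO1 DMSO. MUC16 stood at 49.6 and 4.87 CPM in these groups, and WT1 was low in both, at 5.65 and 9.35 CPM. Among markers of other cell types LUM was at 0 in every library, PTPRC, CD3E and DCN at or near 0, and CDH5, an endothelial cadherin, stood at 73.9 CPM in COV362 DMSO and 6.56 CPM in PEO1 DMSO. In COV362 the summed level of 3 endothelial markers was 73.8 to 88.2 CPM in DMSO and 46.5 to 51.0 CPM with prexasertib, and that of 5 immune markers, mostly CD68, 31.3 to 42.3 CPM and then 50.1 to 60.2 CPM. In PEO1 the endothelial sum was 6.43 to 7.38 CPM and then 1.32 to 3.62 CPM, and the immune sum 37.2 to 42.6 CPM and then 32.4 to 39.2 CPM. The summed level of 6 epithelial markers in PEO1 was 7134 to 8360 CPM in DMSO and 3601 to 4205 CPM with prexasertib. That of 5 Müllerian markers, mostly PAX8 in PEO1, was 145 to 170 CPM and then 102 to 114 CPM. In COV362 these were 2131 to 2686 and 2217 to 3404 CPM, and 273 to 319 and 179 to 204 CPM. Their part in the results was not tested.

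In PEO1, 4 members fell with prexasertib and 1 rose. FANCD2, FANCE, FANCG and FANCA fell by 33.6% to 36.9%, and FANCM rose 1.89-fold. The anchor of the pathway thus moved opposite to FANCA, FANCG and FANCE of the core complex that it recruits. The other 5 members did not pass the test. A gene was called at an adjusted p under 0.05 in edgeR's quasi-likelihood test, with Benjamini-Hochberg adjustment over 14498 genes. By that rule 29.3% of all tested genes were called in PEO1, 14.7% higher and 14.6% lower, so a call on its own is common in this line. Changes below are log2 fold changes ± standard error (SE) with 3 libraries a group.

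**Figure D1:**
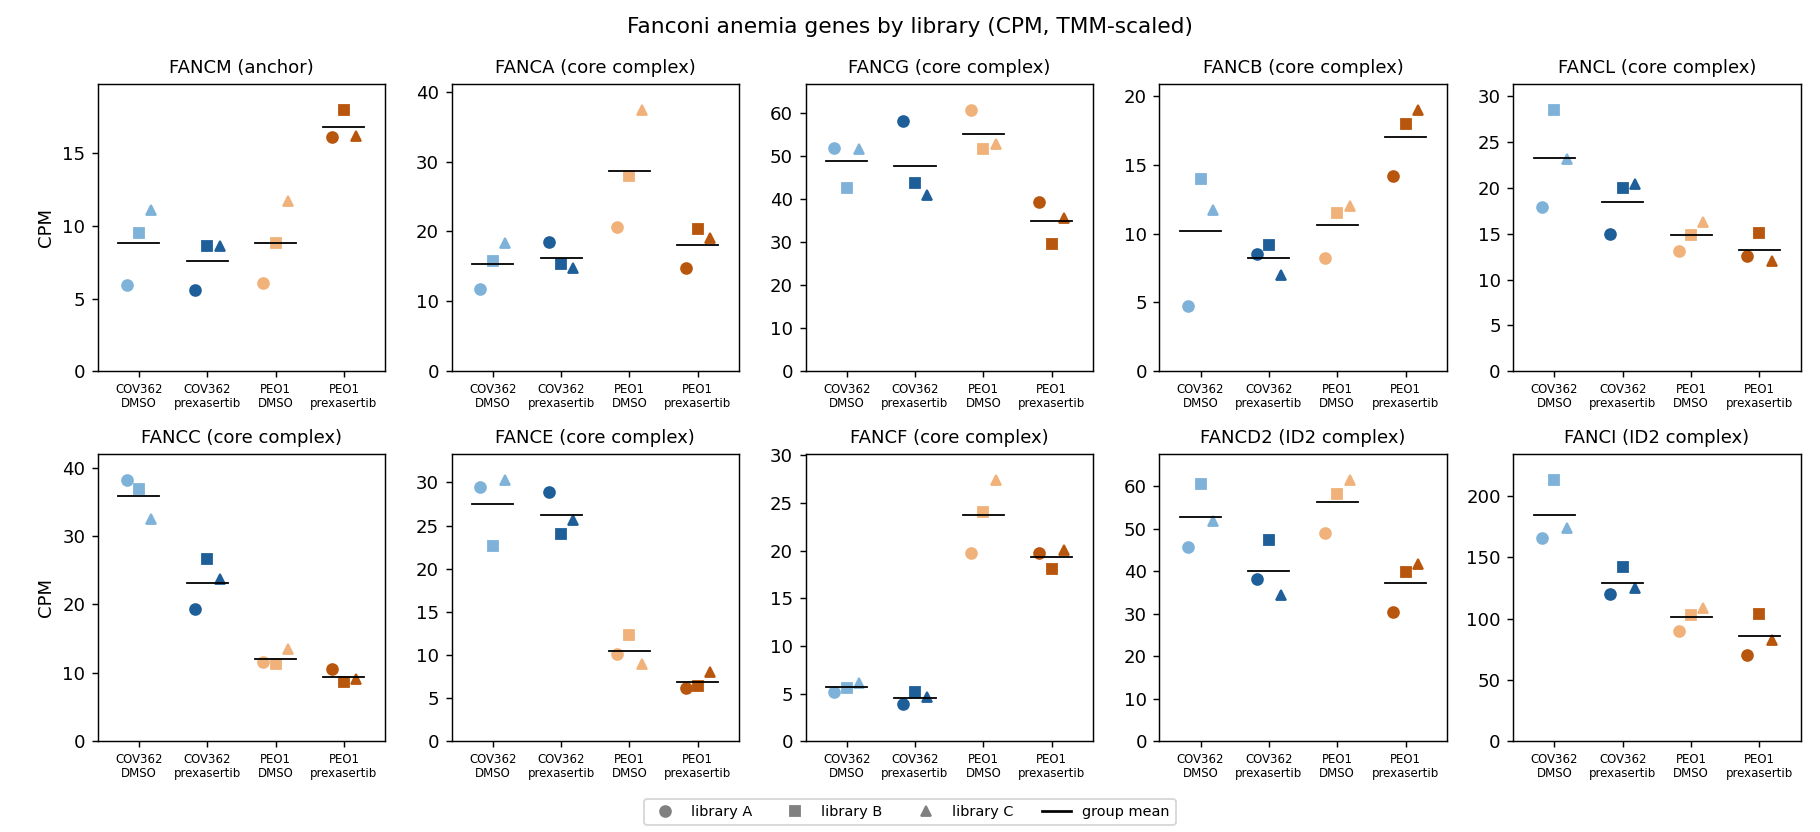
TMM-scaled CPM (y axis, from 0, a separate scale for each gene) of the 10 Fanconi anemia genes in the 4 groups (x axis), with 1 point for each of libraries A, B and C and a line at the group mean. FANCM and FANCB are higher in all 3 treated PEO1 libraries than in any PEO1 DMSO library, and FANCF is high in PEO1 only, at 18.1 to 27.4 CPM against 3.93 to 6.13 CPM in COV362.

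FANCM, the DNA translocase that anchors the core complex at chromatin (chromosome 14, positions 45135939 to 45200890, plus strand, build hg38), measured 6.07, 8.80 and 11.7 CPM in PEO1 DMSO libraries A, B and C. With prexasertib it measured 16.1, 18 and 16.2 CPM. Every treated library was above every DMSO library, and the treated ones lay closer together (SD 1.08 against 2.82). The change was 0.92 ± 0.27 (edgeR adjusted p = 0.0204). The A library was the lowest of the DMSO group. Without PEO1 DMSO A the change was 0.66 (edgeR adjusted p = 0.114), but without all 4 A libraries it was 0.74 (edgeR adjusted p = 0.0157). With counts corrected for exon length it was 0.81 (edgeR adjusted p = 0.00791). The call was also lost without any of PEO1 DMSO B or the 3 treated libraries, where the edgeR adjusted p ranged from 0.0541 to 0.0817.

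FANCG and FANCA form the pair that holds the core complex together. Both had an estimated change of −0.66, with a larger SE for FANCA, and the 2 changes were not compared by a test. FANCG (chromosome 9, 35073838 to 35080016, minus strand) measured 60.7, 51.7 and 52.7 CPM in PEO1 DMSO and 39.3, 29.6 and 35.6 CPM with prexasertib. All 3 treated libraries were below all 3 controls, and the change was −0.66 ± 0.16 (edgeR adjusted p = 0.00843). FANCG was the member whose call in PEO1 held under every alternative run, with an adjusted p of at most 0.0299.

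FANCA (chromosome 16, 89737551 to 89816657, minus strand), the member most often mutated in patients, measured 20.6, 27.9 and 37.4 CPM in PEO1 DMSO. With prexasertib it measured 14.7, 20.4 and 19.1 CPM. The groups were apart by a narrow gap, between DMSO A and treated B. FANCA fell by 0.66 ± 0.23 on the log2 scale (edgeR adjusted p = 0.0420). Without PEO1 DMSO C, its highest library, the change was −0.48 (edgeR adjusted p = 0.155). The call was also lost without DMSO B, treated A or treated C, with an edgeR adjusted p of 0.0630 to 0.111.

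FANCB and FANCL form the catalytic part of the core complex. FANCB (chromosome X, 14843407 to 14873062, minus strand) measured 8.22, 11.5 and 12 CPM in PEO1 DMSO and 14.2, 18 and 19 CPM with prexasertib. The groups did not overlap, yet the change of 0.69 ± 0.30 missed the threshold (edgeR adjusted p = 0.0990). The fit to the 6 PEO1 libraries alone gave 0.68 with an edgeR adjusted p of 0.0121. FANCL, the ubiquitin ligase (chromosome 2, 58159243 to 58241380, minus strand), measured 13.1, 14.9 and 16.3 CPM in DMSO and 12.6, 15.1 and 12 CPM with prexasertib. Its groups overlapped, and the change was −0.16 ± 0.20 (edgeR adjusted p = 0.575, 95% interval −0.59 to 0.26).

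Of the third part of the core complex, FANCE fell, while FANCC and FANCF missed the threshold. FANCE (chromosome 6, 35452361 to 35467104, plus strand), which links the core complex to FANCD2, measured 10.1, 12.3 and 9.02 CPM in PEO1 DMSO and 6.17, 6.43 and 8.09 CPM with prexasertib. The groups did not overlap, and the change was −0.60 ± 0.19 (edgeR adjusted p = 0.0279). The FANCE call was lost without the 4 A libraries (edgeR adjusted p = 0.0696) and without DMSO B, treated A or treated B (edgeR adjusted p 0.0705 to 0.0879).

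FANCC (chromosome 9, 95099054 to 95317709, minus strand) measured 11.6, 11.3 and 13.5 CPM in PEO1 DMSO and 10.5, 8.63 and 9.05 CPM with prexasertib. Its groups did not overlap, and its change was −0.37 ± 0.17 (edgeR adjusted p = 0.113), or −0.46 with counts corrected for exon length (edgeR adjusted p = 0.0469). FANCF, an adaptor between the parts of the core complex (chromosome 11, 22622533 to 22625841, minus strand, a single exon in the table), measured 19.7, 24.0 and 27.4 CPM in DMSO and 19.7, 18.1 and 20.1 CPM with prexasertib. The FANCF groups overlapped, with both A libraries at 19.7 CPM, and the change of −0.30 ± 0.17 was not called (edgeR adjusted p = 0.206).

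Of the ID2 clamp, FANCD2 fell in PEO1, and FANCI had a change of the same sign that missed the threshold. FANCD2 (chromosome 3, 10026429 to 10101930, plus strand) measured 49.0, 58.1 and 61.5 CPM in DMSO and 30.5, 39.8 and 41.6 CPM with prexasertib. All treated libraries were below all controls, and the change was −0.59 ± 0.17 (edgeR adjusted p = 0.0188). The FANCD2 call was lost without DMSO C (edgeR adjusted p = 0.0521) or treated A (edgeR adjusted p = 0.0608). FANCI (chromosome 15, 89243963 to 89317131, plus strand) measured 89.7, 103 and 109 CPM in DMSO and 70.6, 104 and 82.3 CPM with prexasertib. Treated B lay inside the DMSO range, and the change was −0.23 ± 0.16 (edgeR adjusted p = 0.277). With counts corrected for exon length FANCI was called, at −0.32 (edgeR adjusted p = 0.0419). The difference between the changes of FANCD2 and FANCI was not tested.

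Counted over the 10 members, the PEO1 libraries did not overlap between the groups for 7 (2 higher and 5 lower), against 50.1% of all tested genes (25.0% higher and as many lower). The summed level of the members was 289 to 351 CPM in the DMSO libraries and 234 to 278 CPM in the treated ones, and in COV362 376 to 449 CPM and 305 to 342 CPM. The median change was −0.33, beside 0.01 over all tested genes. FANCM and FANCB had changes above 0, and the other 8 below.

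**Figure D2:**
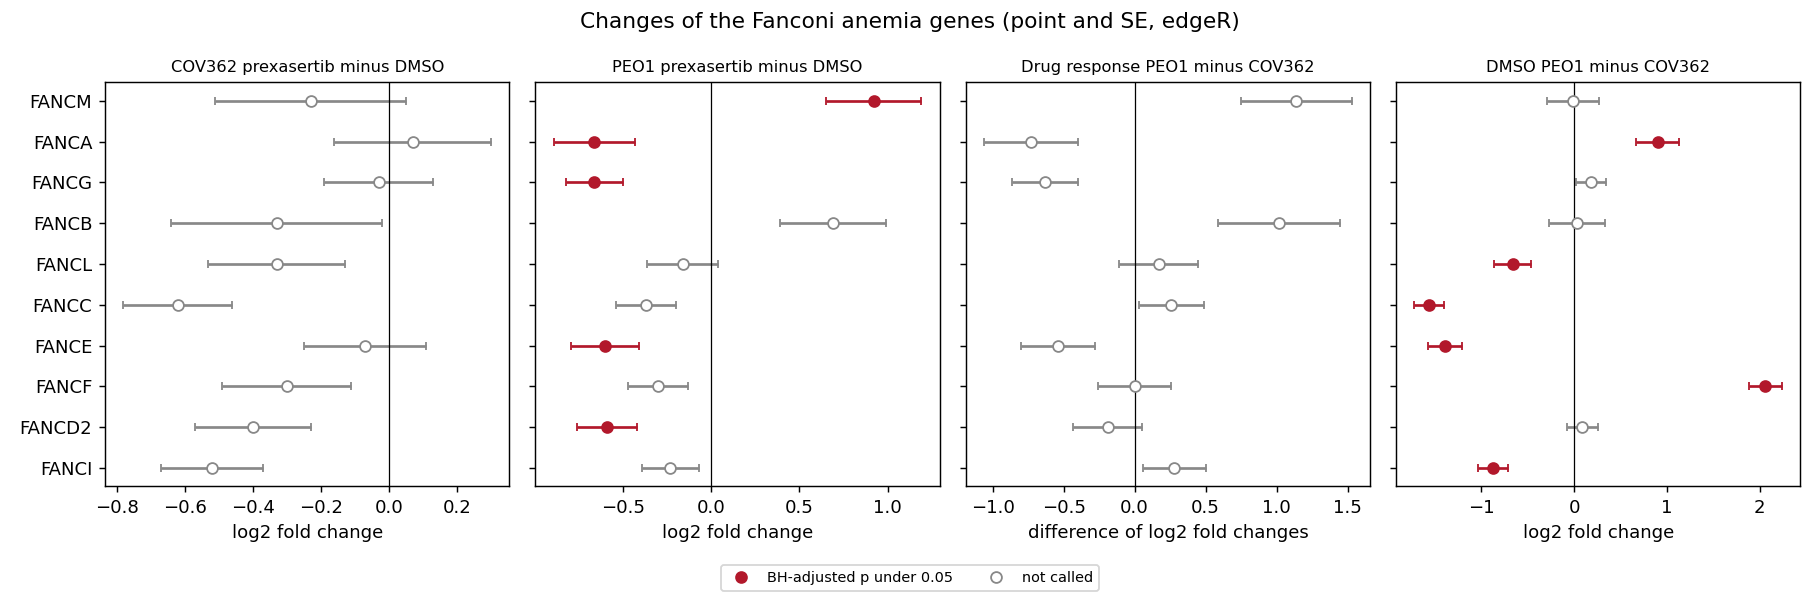
Log2 fold change (x axis, a separate range for each panel) of each Fanconi anemia gene (rows) in the 4 comparisons, as the edgeR estimate with its SE as the bar. Filled points passed an adjusted p of 0.05. These are 5 genes in PEO1, 6 between the untreated lines, and none in COV362 or for the difference between the drug responses.

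In COV362 no member passed the threshold in the fit without pairing, and 3 fell once the letters of the libraries were kept as a block: FANCC, FANCI and FANCD2. The libraries of COV362 with the same letter deviated together, so the blocked values are given beside the others for this line. Without the block 0.828% of all tested genes were called in COV362 (0.607% higher and 0.221% lower), and with it 13.6% (5.74% higher and 7.90% lower). Before adjustment, 3 members were lower and none higher at a p under 0.05. Over all tested genes that share was 12.6% (6.29% lower and 6.33% higher). DESeq2 called 1 member, FANCC, and its share of calls over all tested genes was not counted. The log2 fold change was below 0 for 9 of the 10 members, with a median of −0.32 beside −0.01 over all tested genes.

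FANCC measured 38.2, 36.8 and 32.5 CPM in COV362 DMSO and 19.4, 26.6 and 23.7 CPM with prexasertib. The groups did not overlap. The change was −0.62 ± 0.16, with an edgeR adjusted p of 0.0963 without the block, 0.00278 with it, and 0.0109 in DESeq2.

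Both partners of the clamp were called lower in COV362 with the block and neither without it. FANCI measured 166, 213 and 174 CPM in COV362 DMSO and 120, 142 and 125 CPM with prexasertib. All treated libraries were below all controls. The change was −0.52 ± 0.15 (edgeR adjusted p = 0.156), and −0.51 ± 0.09 with the block (edgeR adjusted p = 1.06e-04). FANCD2 measured 45.6, 60.5 and 51.9 CPM in DMSO and 38.2, 47.4 and 34.4 CPM with prexasertib. The groups overlapped, since treated B was above DMSO A, although each treated library was below the control of its letter. The change was −0.40 ± 0.17 (edgeR adjusted p = 0.345), and −0.40 ± 0.10 with the block (edgeR adjusted p = 0.00794).

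FANCF, at 5.20, 5.64 and 6.13 CPM in COV362 DMSO and 3.93, 5.18 and 4.65 CPM with prexasertib, was the other member whose COV362 groups did not overlap, though treated B came close to DMSO A. That made 3 members without overlap, all lower, against 14.5% of all tested genes (6.82% higher and 7.63% lower). The FANCF change was −0.30 ± 0.19 (edgeR adjusted p = 0.566, 0.355 with the block).

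The remaining members were not called in COV362 with or without the block. FANCG measured 51.9, 42.6 and 51.5 CPM in DMSO and 58.2, 43.8 and 41.0 CPM with prexasertib, a change of −0.03 (95% interval −0.38 to 0.32). FANCA measured 11.7, 15.8 and 18.3 CPM and then 18.5, 15.4 and 14.7 CPM, a change of 0.07 (−0.43 to 0.57) that became −0.18 without the 4 A libraries. FANCE measured 29.5, 22.6 and 30.3 CPM and then 28.9, 24.0 and 25.7 CPM, a change of −0.07 (−0.45 to 0.32). The groups of all 3 overlapped.

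FANCB, FANCL and FANCM stood lowest in the A library of COV362 DMSO, as did FANCA, FANCD2, FANCF and FANCI. FANCB measured 4.72, 14 and 11.7 CPM in DMSO and 8.52, 9.19 and 7.0 CPM with prexasertib, a change of −0.33 ± 0.31. FANCL measured 17.9, 28.5 and 23.1 CPM and then 15, 20.0 and 20.4 CPM, a change of −0.33 ± 0.20. FANCM measured 5.93, 9.53 and 11.1 CPM and then 5.57, 8.64 and 8.65 CPM, a change of −0.23 ± 0.28. The groups of FANCB, FANCL and FANCM overlapped too. Their edgeR adjusted p values were 0.535 to 0.817.

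The difference between the drug responses, PEO1 minus COV362, was tested as an interaction in the same fit. None of the 10 members passed, against 6.10% of all tested genes (3.14% higher in PEO1 and 2.97% lower). At an unadjusted p under 0.05, FANCM and FANCB were higher and FANCA and FANCG lower. Over all tested genes that share was 25.2% (12.8% higher and 12.4% lower). DESeq2 called FANCM, again without a share over all tested genes to set beside it. The largest difference was that of FANCM, 1.14 ± 0.39 (edgeR adjusted p = 0.0915, 95% interval 0.31 to 1.98). FANCB differed by 1.02 ± 0.43 (edgeR adjusted p = 0.158), with a 95% interval of 0.10 to 1.94. Without COV362 DMSO A, the shallowest library, both were called, FANCM at 1.34 (edgeR adjusted p = 0.0388) and FANCB at 1.33 (edgeR adjusted p = 0.0222). Leaving out any other library alone called no member for this difference. Without the 4 A libraries only FANCB was called, at 1.32 (edgeR adjusted p = 0.0180). The share of all tested genes called in these reduced fits was not counted.

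FANCA and FANCG, not called in COV362 and called lower in PEO1, differed by −0.73 ± 0.33 (edgeR adjusted p = 0.179) and −0.63 ± 0.23 (edgeR adjusted p = 0.114). FANCE differed by −0.54 ± 0.26 (edgeR adjusted p = 0.217). For the clamp the difference was −0.19 (95% interval −0.71 to 0.33) in FANCD2 and 0.28 (−0.19 to 0.75) in FANCI. FANCC, FANCL and FANCF differed by 0.26, 0.17 and 0.00, each with an SE of 0.23 to 0.28. A test that misses the threshold does not show that the lines responded alike.

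Between the lines under DMSO, 6 of the 10 members differed: FANCF and FANCA were higher in PEO1, and FANCC, FANCE, FANCI and FANCL were lower. Of all tested genes 57.7% were called in this comparison (29.1% higher in PEO1 and 28.6% lower). The same 6 members were those whose groups did not overlap, against 63.5% of all tested genes (32.4% higher and 31.1% lower). The DMSO libraries are the ones the drug comparisons also use, so these differences and the drug changes are not independent.

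FANCF showed the largest difference of the members, with 5.20, 5.64 and 6.13 CPM in COV362 and 19.7, 24.0 and 27.4 CPM in PEO1. It was 4.17-fold higher in PEO1 (2.06 ± 0.18, edgeR adjusted p = 4.57e-07). Its partners in the same part of the core complex went the other way. FANCC was 2.95-fold lower in PEO1 (−1.56 ± 0.16, edgeR adjusted p = 2.49e-06), and FANCE 2.62-fold lower (−1.39 ± 0.18, edgeR adjusted p = 2.19e-05). The proteins of these 3 genes bind to each other, and their transcripts thus stood in different proportions in the lines, FANCF being the scarcest of the 3 per exon length in COV362 and the most abundant in PEO1.

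FANCA was 1.86-fold higher in PEO1 DMSO (0.90 ± 0.23, edgeR adjusted p = 0.00438), while its partner FANCG differed by 0.18 ± 0.16 (edgeR adjusted p = 0.368). FANCI was 1.83-fold lower (−0.87 ± 0.16, edgeR adjusted p = 2.85e-04), whereas its clamp partner FANCD2 differed by 0.09 (95% interval −0.27 to 0.46). FANCL was 1.58-fold lower (−0.66 ± 0.20, edgeR adjusted p = 0.0113), a call that was lost without COV362 DMSO B (−0.48, edgeR adjusted p = 0.0680). FANCB and FANCM differed by 0.03 ± 0.30 and −0.01 ± 0.28.

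Levels can be compared between genes as CPM per kilobase of exon in the table. In COV362 DMSO, FANCI led with 38.8 ± 5.32 (SD, n = 3), and FANCG followed with 18.5 ± 1.99. FANCL at 13.4, FANCE at 10.8 and FANCD2 at 8.86 each overlapped the gene next in the order among them, and FANCL also overlapped FANCG. FANCC at 6.14 came after them, without overlap. FANCB at 3.38 and FANCA at 2.47 overlapped. The order ended with FANCF at 1.71 ± 0.140 and FANCM at 1.24 ± 0.370, neither of which overlapped the gene before it. By this measure FANCI was at the 87.4th percentile of tested genes and FANCM at the 25.9th.

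In PEO1 DMSO, FANCI at 21.2 ± 2.11 and FANCG at 20.9 ± 1.87 could not be ordered. FANCD2 followed at 9.45, then FANCL at 8.53, FANCF at 7.17 and FANCA at 4.63, whose ranges each overlapped the next, although the order from FANCD2 to FANCA held in each library. FANCE at 4.10 and FANCB at 3.52 overlapped, and FANCC at 2.08 and FANCM at 1.24 came last. With prexasertib FANCB moved from the eighth to the sixth place at 5.67 CPM per kilobase, and FANCM, at 2.35, was above FANCC, at 1.61, in every library.

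**Figure D3:**
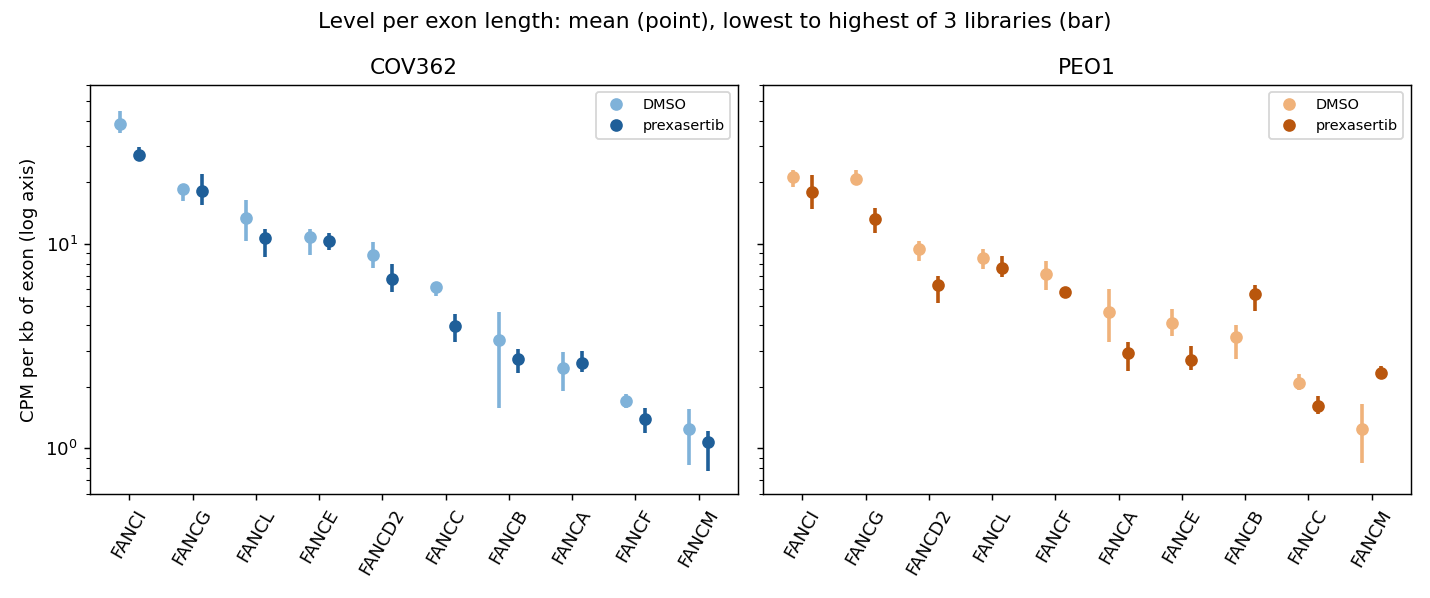
CPM per kilobase of exon (y axis, log scale) of the Fanconi anemia genes (x axis, in the order of the DMSO means of each line), with the mean of 3 libraries as a point and their range as a bar. In COV362 the means keep the same order with and without the drug, with FANCI first and FANCM last. In PEO1 the treated FANCB and FANCM points stand above their DMSO points and most others below.

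Within a library the ratio of FANCI to FANCD2 per exon length was close between DMSO replicates and higher in every COV362 library than in any PEO1 library. It was 4.55, 4.41 and 4.21 in COV362 DMSO and 2.29, 2.22 and 2.23 in PEO1 DMSO. With prexasertib it was 4.08 ± 0.409 (SD, n = 3) in COV362 and 2.90, 3.26 and 2.47 in PEO1. All treated PEO1 libraries were above the PEO1 controls, and the treated COV362 libraries (3.94, 3.75 and 4.53) overlapped theirs. The proteins form a pair of 1 to 1, but transcript counts per exon length do not give protein amounts.

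The other genes of the pathway were taken from a list of 34 partners, of which all 34 were tested. In PEO1, 8 rose and 5 fell (38.2% called, beside 29.3% of all tested genes), with a median change of 0.19. BRCA2, a mediator of homologous recombination, rose 3.67-fold, from 2.42, 5.65 and 6.65 CPM to 17.8, 20.3 and 16.3 CPM (1.88 ± 0.40, edgeR adjusted p = 0.00389). BOD1L1, a protector of stalled forks, rose from 88.2 ± 8.77 to 184 ± 43.8 CPM (SD, n = 3; 1.06 ± 0.25, edgeR adjusted p = 0.00692). FAAP100, which sits with FANCB and FANCL in the catalytic part, measured 26.8, 20.7 and 30.2 CPM in DMSO and 10.1, 10.2 and 14.8 CPM with the drug. FAAP100 fell by 1.15 ± 0.26 on the log2 scale (edgeR adjusted p = 0.00484), while FANCB and FANCL were not called. TELO2, a chaperone of the ATM and ATR kinases, fell by 1.38 ± 0.33 (edgeR adjusted p = 0.00731).

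Some partners stand next to the members in the pathway and are named here after their values were seen. Of the genes whose products bind FANCM, FAAP24 rose in PEO1 (0.57 ± 0.15, edgeR adjusted p = 0.0122). CENPX, listed as STRA13, fell from 112 ± 17.5 to 59.3 ± 10.3 CPM (SD, n = 3; −0.91 ± 0.27, edgeR adjusted p = 0.0230). CENPS, listed as APITD1, was not called, at 1.16 ± 0.585 and 1.49 ± 0.770 CPM (SD, n = 3; 0.37 ± 0.59, edgeR adjusted p = 0.671). WDR48, the activator of the deubiquitinase USP1, rose from 60.7 ± 5.59 to 98.6 ± 11 CPM (SD, n = 3; 0.70 ± 0.15, edgeR adjusted p = 0.00362). USP1 itself stood at 144 ± 8.19 and 118 ± 8.65 CPM (edgeR adjusted p = 0.115), and UBE2T at 77.0 ± 10.9 and 97.6 ± 15.3 CPM (edgeR adjusted p = 0.233).

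In COV362 no partner was called without the block. At an unadjusted p under 0.05 there was 1, lower, beside 12.6% of all tested genes (6.29% lower). With the block 3 fell, or 8.82%, beside 13.6% of all tested genes (7.90% lower). These were BRIP1 (edgeR adjusted p = 0.00251 with the block), BRCA1 (0.0244) and BLM (0.0352), named because the count is small. The median over the partners was −0.09. The difference between the drug responses was called for 4 partners, 11.8% beside 6.10% of all tested genes. BRCA2 (2.27 ± 0.56, edgeR adjusted p = 0.0336) and WDR48 (0.82 ± 0.21, edgeR adjusted p = 0.0389) were higher in PEO1. FAAP100 was lower (−1.33 ± 0.37, edgeR adjusted p = 0.0492).

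Between the untreated lines 13 partners differed, 4 higher in PEO1 and 9 lower. BRCA2 was 3.28-fold lower in PEO1 (−1.71 ± 0.40, edgeR adjusted p = 0.00255), and EME1, the partner of the nuclease MUS81, 2.32-fold lower (−1.22 ± 0.15, edgeR adjusted p = 1.27e-05). CENPX, a histone-fold partner of FANCM, was 2.84-fold higher under its listed symbol STRA13 (1.5 ± 0.28, edgeR adjusted p = 4.04e-04). REV3L, the catalytic subunit of a translesion polymerase, was 2.43-fold higher (1.28 ± 0.27, edgeR adjusted p = 0.00113). The share called was 38.2%, beside 57.7% of all tested genes. With the block, which the pairing of the DMSO groups allows, 23 partners were called (8 higher and 15 lower), or 67.6% beside 68.4%.

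**Figure D4:**
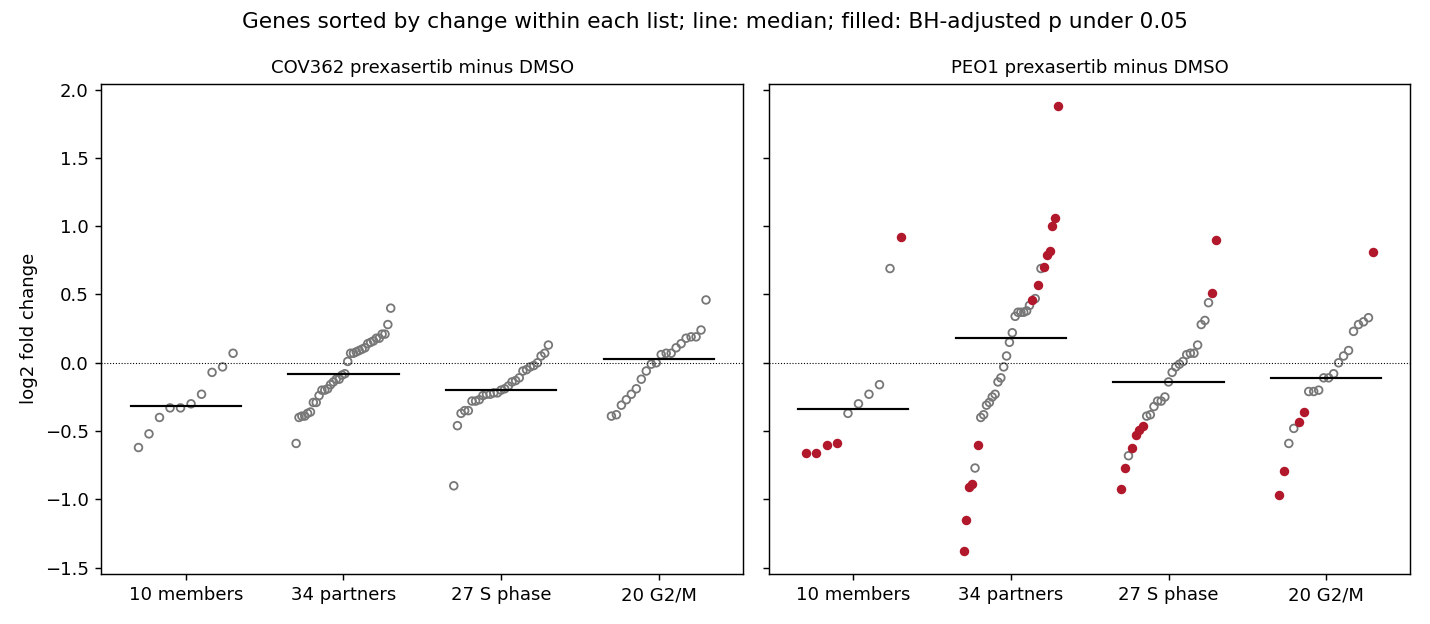
Log2 fold change with prexasertib (y axis) of the 10 members, 34 partners, 27 S phase genes and 20 G2/M genes (x axis, sorted by value within each list) in COV362 and PEO1, with the list median as a line and filled points for an edgeR adjusted p under 0.05. No listed gene is filled in COV362. In PEO1 most members lie below 0, while the partners spread to both sides with BRCA2 at the top.

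Transcripts of several members are known to peak around S phase, so genes of the cell cycle were read beside them. Fewer cells in a phase and less RNA per cell cannot be told apart in bulk libraries. The summed level of 27 S phase genes was 3850 to 4048 CPM in COV362 DMSO and 3312 to 3646 CPM with prexasertib. None of the 27 was called without the block. Before adjustment 5 were lower at a p under 0.05 and none higher, beside 12.6% of all tested genes (6.29% lower). With the block 7 fell, or 25.9%, beside 13.6% of all tested genes (7.90% lower). E2F8, 1 of the 27, was at 0 CPM in all COV362 libraries and so could not be called there. The median of the 27 was −0.20 beside −0.32 for the members. In PEO1 the sum was 3293 to 3605 CPM and then 3274 to 3414 CPM, which overlapped, with 2 genes called higher (RRM2 and DTL), 6 lower (29.6% called, beside 29.3% of all tested genes) and a median of −0.14.

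The 20 G2/M genes summed to 5569 to 6530 CPM in COV362 DMSO and 5772 to 6528 CPM with the drug, with none called without the block. At a p under 0.05 before adjustment 1 was higher and 2 were lower, beside 12.6% of all tested genes. With the block 2 were higher and 4 lower, or 30.0%, beside 13.6% of all tested genes (5.74% higher and 7.90% lower). In PEO1 the sums were 4116 to 4296 CPM and then 3626 to 4044 CPM, and 1 gene rose and 4 fell (25.0% called, beside 29.3% of all tested genes). The part of the cell cycle in the members' changes was not tested.

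Reads of some members cannot be assigned with certainty, since the library kit does not keep the strand. Exons of FANCA share 1417 bases, 22.9% of its exon length, with ZNF276 on the opposite strand, whose mean level was 5.20 CPM. FANCL shares 452 bases (26.1%) with VRK2, at a mean of 30.0 CPM. FANCI shares 431 bases (9.08%) with POLG, at 37.3 CPM, and FANCD2 119 bases (2.00%) with FANCD2OS, which was nearly silent at a mean of 0.0454 CPM. FANCD2 also has the pseudogene copies FANCD2P1 and FANCD2P2 on chromosome 3, which are not analysed here, and how reads with several matches were handled is not given in the sources used here.

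The genes that start within 1000 bases of a member on the other strand are CIDECP at FANCD2 and MOSPD2 at FANCB. CIDECP, a pseudogene, rose from 4.72 ± 0.349 to 19.4 ± 5.27 CPM (SD, n = 3) in PEO1 (2.04 ± 0.25, edgeR adjusted p = 8.13e-05) while FANCD2 fell. Its start lies 293 bases from that of FANCD2. In COV362 it changed by 0.62 ± 0.25 (edgeR adjusted p = 0.307, 0.0273 with the block), and the difference between the responses was 1.42 ± 0.35 (edgeR adjusted p = 0.0322). MOSPD2 starts 343 bases from FANCB and had changes of the same sign as FANCB, −0.47 ± 0.27 in COV362 (edgeR adjusted p = 0.524) and 0.36 ± 0.26 in PEO1 (edgeR adjusted p = 0.321), neither of which was called.

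The genes most like a member across the 12 libraries were found by the root mean square difference of log2 CPM, each gene taken relative to its own mean, among 10679 genes of at least 5 CPM. The 12 points share lines, letters and depth, so the measure is a description. For FANCD2 the nearest were ERCC6L (0.102), LMBR1 (0.127) and SUN1 (0.142), where the median over all candidates was 0.567. FANCI was nearest to STAU2 (0.104), MGAT5 (0.125) and DNM1L (0.131), with a median of 0.626. Among the members FANCL was closest to FANCI, at 0.176, and FANCF farthest, at 1.4. FANCA was nearest to PINK1 (0.183), ADRBK1 (0.214) and RAB15 (0.215), with a median of 0.619. The distance between FANCD2 and FANCI was 0.403, larger than that of FANCD2 to FANCG (0.325), FANCL (0.362) or FANCA (0.370).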

How the data were processed

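RNA was measured in 12 libraries, made per the labels' protocols from column-extracted RNA with Illumina's unstranded TruSeq kit (RNA, v2). The deposited table holds raw counts per gene. STAR and featureCounts 1.4.6 (Subread) with build hg38 are named in the submitters' processing notes, which give no order or settings. Gene positions and exon lengths are those of the table, per the file headers.

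Genes were filtered with filterByExpr (minimum count 10, minimum total 15), which left 14498, and 5652 were at 0 in every library. One edgeR 4.0.16 fit (R 4.3.3, TMM scaling, quasi-likelihood F-test) of 4 group means had 8 residual degrees of freedom. Benjamini-Hochberg adjustment ran over all tested genes, with a call under 0.05. SE and 95% intervals come from the fit. Alternatives were DESeq2 1.42.0 and its size factors, limma-voom (limma 3.58.1), singleton pairing in TMM, no filter, an exon length correction, a replicate block, the libraries compared alone, and libraries left out.

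The library letters were checked for pairing by the correlation of deviations from group means, with every pair above 0.1 as the rule. Pairs A, B and C gave 0.41, 0.423 and 0.133 between the COV362 groups, 0.35, 0.164 and 0.148 between the DMSO groups, and 0.302, 0.171 and 0.081 in PEO1, where the letters missed the rule. The blocked fit of the drug comparisons still held the letters of both lines. Its SE and p-values for COV362 therefore also draw on PEO1 libraries blocked by letter, with fewer residual degrees of freedom than the main fit.

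The members and lists were chosen with earlier results of these data known. All members are named. Partners are named by rule, as the up to 4 called genes of each comparison with the largest change and a mean of at least 1 CPM, and others where stated. One partner that the rule takes is not reported here. For FANCD2, FANCI and FANCA the 3 most similar genes are given. Promoter windows are from RefSeq. No genome was used.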

Additional observations from a re-analysis of the deposited data

How the results depend on the processing

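The 40 log2 fold changes of the members were recomputed in 690 alternative values, of which 624 kept direction and side of the threshold, 16 lost a call, 31 gained one and 19 changed sign. Where a cause is not given by fewer libraries, it was not tested. The letters did not pair the PEO1 libraries by the rule used. There 4 of 6 libraries correlated best with their own letter, beside 4 of 6 between the DMSO groups and 5 of 6 in COV362. The replicate block gave 2 higher (FANCM and FANCB) and 6 lower in PEO1, 3 lower in COV362, and 2 higher and 2 lower for the difference between the drug responses. With the block and the exon length correction these were 2 and 6, 3, and 2 and 3. The block called 51.4% of all tested genes in PEO1 and 33.8% for that difference. The block changed no member's call between the untreated lines. DESeq2 called 1 member lower in COV362 and 1 higher for the difference between responses, with no share over all tested genes counted. Without the 4 A libraries 2 members were higher in PEO1 and 1 for the difference between responses, and with only the libraries compared 2 were higher in PEO1. The exon length correction gave 6 lower in PEO1 and 1 lower for the difference between responses, FANCA at −0.96 (edgeR adjusted p = 0.0472). Leaving out 1 library gave 0 to 1 higher and 1 to 4 lower in PEO1, where FANCM was lost without any of 5 of the 6 libraries, and 0 to 2 higher for the difference between responses. Outside the block on its own, the share of all tested genes called was not counted for these alternatives.

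Every change of sign was in a difference that no test had called. Leaving out 1 library took FANCA from −0.08 to 0.22, FANCE from −0.19 to 0.01 and FANCG from −0.20 to 0.07 in COV362. It took FANCL from −0.01 to 0.32 for the difference between responses, and between the untreated lines FANCB from −0.28 to 0.33 and FANCM from −0.26 to 0.19. Without the 4 A libraries the values were −0.18 for FANCA in COV362, −0.03 for FANCC in the difference between responses, and −0.12 for FANCB and 0.01 for FANCM between the untreated lines. With the length correction FANCB was at −0.02 there. With 39 to 3889 counts per member and library, counting error was largest for FANCB in COV362 DMSO A.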
